A study of Homo sapiens with 18 samples.

Results

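The clustered protocadherins are cell-surface proteins of the cadherin superfamily that lie side by side in 3 gene clusters, named alpha, beta and gamma. They were followed here in MDA-MB-231, an established triple-negative breast cancer cell line. Every protein-coding gene whose annotated symbol begins with PCDHA, PCDHB, PCDHGA, PCDHGB or PCDHGC followed by its number (or PCDHAC for the alpha C genes) was taken, which gave 53 of the 62703 genes in the deposited tables. Of these, 15 belong to the alpha cluster, 16 to the beta cluster and 22 to the gamma cluster, and the gamma cluster splits into 12 gamma A, 7 gamma B and 3 gamma C genes. They were chosen by symbol and not by a measured value, although earlier results of these data were known.

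Polyadenylated RNA was sequenced from 10 distinct libraries in 5 groups of 2. Cells of 3 groups received a lentivirus for 24 h and then puromycin at 2 ug/ml for 72 h. The control virus carried a control hairpin (control shRNA), and the other viruses silenced EZH2 (shEZH2) or E2F1 (shE2F1). EZH2 is the methyltransferase of Polycomb repressive complex 2 and places the repressive mark on histone H3 lysine 27, and E2F1 activates genes that cells need to enter S phase. The other 2 groups received no virus and were exposed for 72 h to the solvent DMSO or to 1 uM GSK126, an inhibitor of the catalytic activity of EZH2. All groups are bulk cultures of 1 cell line, and the control shRNA libraries also carry a virus and puromycin selection whereas the DMSO libraries do not.

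In the nervous system each neuron uses a small set of clustered protocadherins, and the proteins bind identical partners on other membranes, which lets the branches of 1 neuron recognise each other. Each gene of the alpha and gamma clusters has its own promoter and its own large variable exon, which is spliced to constant exons at the end of the cluster that all its members share, whereas beta genes have a single coding exon and no constant exon. Which promoter is used depends on the insulator protein CTCF and on cohesin, which bring a promoter to distant enhancers, and silent promoters carry DNA methylation. In several carcinomas the locus is known to be silenced over long stretches. The C-type genes, such as PCDHGC3, are used by most neurons rather than by a scattered few.

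The clusters follow each other on the plus strand of chromosome 5 in GRCh38. The alpha genes span chr5:140786136-141012347, the beta genes chr5:141051374-141249365 and the gamma genes chr5:141330514-141512977. In the annotation all 15 alpha genes end in the same 3 constant exons of 59, 89 and 2721 bases, and all 22 gamma genes in 3 constant exons of 59, 89 and 2029 bases. The variable exons of later gamma genes therefore lie inside the introns of earlier ones.

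Promoters of 47 of the 53 genes were available, taken from 250 bases before to 50 after the RefSeq start on GRCh38.p14. Those of PCDHA3, PCDHA13, PCDHB6, PCDHB11, PCDHGA12 and PCDHGC5 were not analysed here. The 4 letters CGCT are the core of the sequence element that the promoters of these clusters are known for. On either strand CGCT occurred in 46 of the 47 promoters (97.9%), against 71.9% of the 27305 promoters of all genes. Longer and other motifs were spread unevenly over the clusters. TGGCGCT, which contains CGCT, was present in 13 of 14 beta promoters (PCDHB1 lacked it), in 3 of 20 gamma promoters (PCDHGB4, PCDHGB5 and PCDHGC3) and in 0 of 13 alpha promoters, against 4.92% of all promoters. The letters CCCTC went the other way, in 0 of 14 beta, 3 of 13 alpha and 11 of 20 gamma promoters, against 73.3% of all promoters. The gamma promoters with CCCTC included those of PCDHGB1, PCDHGB2, PCDHGA5 and PCDHGA6. The E2F-type letters TTGGCGC were found in the promoters of PCDHGB4 and PCDHGB5 alone (2 of 47, against 3.66% of all), and TTCGCGC in 0 of 47 (2.75% of all). Such matches are letters in a window and do not show that a protein binds there.

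Windows of 30 bases on the plus strand around 1 CGCT per promoter are shown for the genes whose values carry the results below and for PCDHA1 as an alpha gene, so that the element can be compared between clusters. The 4 capitals mark CGCT, with 18 bases before it and 8 after it. In each promoter the CGCT whose surroundings were most like those of the other promoters of its cluster was taken.
PCDHA1 (chr5:140786084-140786113): acattggccacatgatgtCGCTgtacacca
PCDHB9 (chr5:141187072-141187101): ttggaagccacaaggtggCGCTgcagactg
PCDHB13 (chr5:141213863-141213892): tgtgaggacgcgtggtggCGCTgcaggata
PCDHB14 (chr5:141223261-141223290): catggagacacatggtggCGCTacaggata
PCDHGB1 (chr5:141350023-141350052): aagacaacctctgggcgcCGCTgtcgacca
PCDHGB2 (chr5:141359919-141359948): gagaaaacctctgagcgtCGCTgttggtca
PCDHGA5 (chr5:141364105-141364134): ggttaggactctgagtgtCGCTgttgacca
PCDHGA6 (chr5:141373833-141373862): agttaggactctaagcgtCGCTgttgacca
PCDHGC3 (chr5:141475878-141475907): ggctgggactctgtgtgcCGCTgtcggcca

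The 3 beta windows carry TGG directly before the capitals, which completes TGGCGCT, and the alpha and gamma windows shown do not. Over all promoters analysed, windows of 1 cluster shared a median of 66.7% (alpha), 70% (beta) and 66.7% (gamma) of their bases, and windows of different clusters 50%. The windows were picked for likeness within a cluster, so the first of these numbers is partly built in. The capitals began a median of 51.5 bases before the annotated start in alpha, 61.5 in beta and 60 in gamma genes.

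The alpha cluster was close to silent. Of the 53 genes, 8 had no count in any of the 10 libraries (7 alpha genes and PCDHB1), and 27 stayed under 10 expected counts in all 10, among them all 15 alpha genes. No alpha gene had more than 5 counts in any library. The highest of them, PCDHA1 (ENSG00000204970), had 1 and 1 counts with control shRNA, 1 and 4 with shEZH2, 0 and 2 with shE2F1, 3 and 3 with DMSO and 5 and 4 with GSK126. PCDHA7 had 2 counts in 1 control shRNA library and 1 in 1 DMSO library, and PCDHA2 had 1 count in 1 shEZH2 library. A count of 0 in these libraries still allows 3 counts, which is 0.150 to 0.227 CPM (counts scaled to library size) depending on the library. A count of 0 therefore does not exclude alpha RNA below that level.

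Transcripts of the other clusters came from neighbouring genes. In TPM, which scales counts by transcript length as well as by library, the highest means over the 10 libraries were 4.93 for PCDHGB2, 3.48 for PCDHGC3, 3.04 for PCDHGB1, 2.42 for PCDHB13, 1.83 for PCDHB14, 1.28 for PCDHB9, 1.2 for PCDHGA4 and 1.05 for PCDHB10. These 8 genes were the only ones with a mean of 1 TPM or more. The 8 beta genes with a mean of at least 10 counts were the consecutive genes PCDHB8, PCDHB16, PCDHB9, PCDHB10, PCDHB11, PCDHB12, PCDHB13 and PCDHB14. In the gamma cluster 10 genes reached that mean. They were PCDHGA1, the unbroken run of PCDHGB1, PCDHGA4, PCDHGB2, PCDHGA5, PCDHGB3, PCDHGA6 and PCDHGA7, then PCDHGB6 and the C-type gene PCDHGC3. The other C-type genes were low, at a mean of 0.233 TPM for PCDHGC5 and 0.067 TPM for PCDHGC4, the gene of this cluster known to be needed for the survival of neurons.

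**Figure D1:**
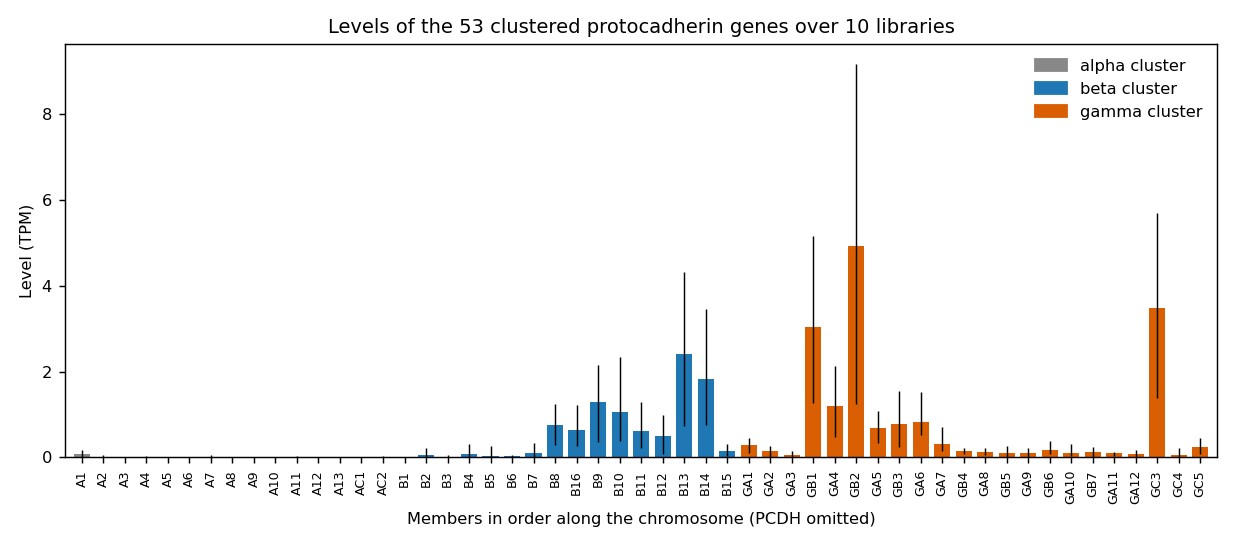
Mean TPM over the 10 libraries (bars, vertical axis from 0) of the 53 clustered protocadherin genes in chromosomal order, with the lowest and highest library as a line. The alpha genes are near 0, and the highest bars are PCDHGB2 at 4.93, PCDHGC3 at 3.48 and PCDHGB1 at 3.04 TPM.

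The order of these levels was resolved only in part. The libraries of PCDHGB2 ranged from 1.24 to 9.18 TPM, those of PCDHGC3 from 1.38 to 5.70, those of PCDHGB1 from 1.26 to 5.16, those of PCDHB13 from 0.74 to 4.32 and those of PCDHB14 from 0.76 to 3.46. Neighbours in this order overlapped in range, and the groups, which are described next, differed in level.

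The members share sequence, and the counting program RSEM divides a read that matches several genes between them. To show how much sequence is shared, each gene's transcripts were cut into all stretches of 50 bases. A median of 49.3% of an alpha gene's stretches, 16.6% of a beta gene's and 43.7% of a gamma gene's also occurred in another gene. The share was 24.2% for PCDHB13, 14.0% for PCDHB14, 51.2% for PCDHGB1, 50.8% for PCDHGB2, 38.5% for PCDHGA5, 33.9% for PCDHGA6 and 38.3% for PCDHGC3. RSEM also reports how uncertain the division is, as a posterior standard deviation of each count. That deviation was 1.51% to 8.09% of the count in 8 beta genes (median 3.25%) and 6.14% to 30.4% in 15 gamma genes (median 14.2%), taking for each gene the median of the 10 libraries. For PCDHB13 it was 1.57%, well under the counting error of 8.83%, for PCDHGB2 6.14% against 7.17%, and for PCDHGC3 13.5% against 9.64%. Values of single gamma genes are therefore less certain than their counts alone would make them, whereas the summed count of a cluster is not touched by a division inside it. A division with genes outside the clusters can still touch the sum. Such genes held 8.58% of the stretches of PCDHB13 and 9.47% of those of PCDHB14, against 0% for PCDHGB1 and PCDHGB2.

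**Figure D2:**
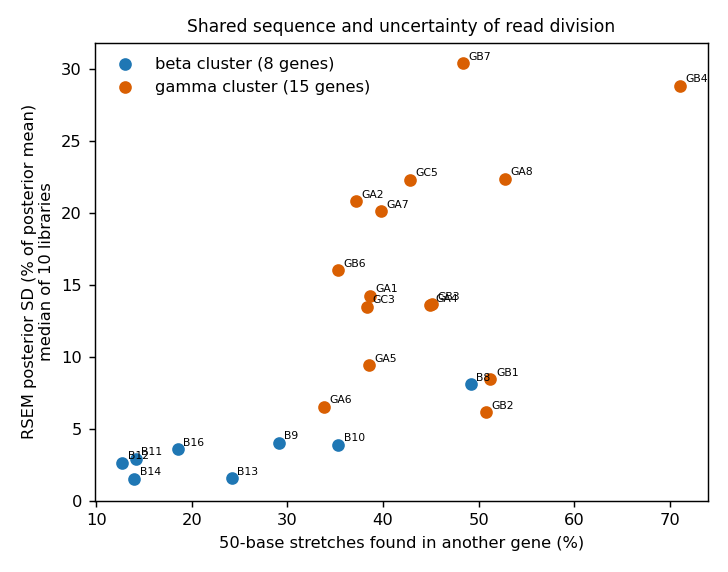
Share of a gene's stretches of 50 bases found in another gene (horizontal axis, percent) against the posterior standard deviation of its count as a percent of the posterior mean (vertical axis, median of 10 libraries), for the 8 beta and 15 gamma genes with a median of at least 5 counts. Beta genes lie between 1.51% and 8.09% and gamma genes between 6.14% and 30.4%.

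The hairpins lowered their targets. EZH2 stood at 153 and 181 CPM with control shRNA and at 52.7 and 44.8 CPM with shEZH2, 3.46-fold lower (log2 change −1.79, SE 0.12, edgeR adjusted p = 2.4e-06). E2F1 stood at 143 and 138 CPM with control shRNA and at 26.0 and 22.5 CPM with shE2F1, 5.83-fold lower (−2.54, SE 0.24, edgeR adjusted p = 1.52e-05). E2F1 was also 3.02-fold lower with shEZH2, at 62.5 and 32.3 CPM (−1.59, SE 0.23, edgeR adjusted p = 0.000172), so the shEZH2 libraries are low in both. EZH2 with shE2F1 was at 121 and 137 CPM (−0.37, SE 0.12, edgeR adjusted p = 0.0227). GSK126 left both RNAs near DMSO, with log2 differences of 0.14 for EZH2 and 0.20 for E2F1. The libraries held 13198932 to 20055550 expected counts. Mesenchymal markers of the line were high in every library, with VIM at 1185 to 2860 TPM, although VIM, AXL and CAV1 were lower with shEZH2 (log2 changes −1.33, −1.83 and −1.27) and AXL with shE2F1 (−2.23). The sum of the 5 markers (with CD44 and KRT18) ran from 5964 to 6016 TPM with control shRNA, 3336 to 3516 with shEZH2 and 5184 to 5412 with shE2F1, and its part in the results below was not tested.

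Markers of other cell types were followed as whole lists, and their part in the results below was not tested. Of 5 neuronal markers 3 stayed under 1 TPM (STMN2 listed at 0, RBFOX3 at most 0.16 and SNAP25 at most 0.41), while SYP at 0.63 to 1.47 TPM and MAP2 at 0.29 to 1.29 TPM were tested and not called in any comparison. The list summed to 1.27 to 1.70 TPM with control shRNA, 2.21 to 2.24 with shEZH2 and 2.09 to 2.31 with shE2F1, above the controls in both knockdowns. Of 3 leukocyte markers CD3E was listed at 0 and PTPRC was at most 0.46 TPM. CD68, a lysosomal protein abundant in macrophages, carried nearly all of that list, at 80.5 and 78.8 TPM with control shRNA, 38.0 and 30.8 with shEZH2 (called lower, log2 change −1.47) and 146 and 158 with shE2F1 (0.71, not past the 2-fold limit). Of 7 luminal epithelial markers PGR was listed at 0, and ESR1 and FOXA1 were at most 0.17 and 0.24 TPM. The list summed to 62.1 to 75.9 TPM with control shRNA, 58.2 to 74.0 with shEZH2 and 59.7 to 62.7 with shE2F1. In it CDH1 was called higher in both knockdowns, and EPCAM, an epithelial adhesion protein, was called lower with shE2F1 (−1.24).

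The summed counts of the beta and gamma clusters were lowest with shE2F1 among the knockdown groups. Beta counts summed to 26.0 and 18.5 CPM with control shRNA, to 15.7 and 11.8 with shEZH2 and to 10.2 and 8.79 with shE2F1. The beta sum was thus below both control libraries in all 4 knockdown libraries, and the mean was 22.3 ± 5.24 CPM (SD, n = 2) with control shRNA, 13.8 ± 2.80 with shEZH2 and 9.48 ± 0.965 with shE2F1, the last 2.35-fold lower than the control. Gamma counts summed to 42.3 and 30.8 CPM with control shRNA, to 40.4 and 34.4 with shEZH2 and to 17.8 and 16.9 with shE2F1. The shEZH2 libraries lay between the controls (mean 37.4 ± 4.24 against 36.6 ± 8.09), while both shE2F1 libraries lay below them (17.4 ± 0.637, 2.10-fold lower). An exact two-sided permutation test of 2 libraries against 2 cannot go below p = 0.333, so these sums carry no test. Alpha sums, from 1 to 6 counts per library, were too low to give a fold. Because each library is a bulk culture, fewer cells with these transcripts and less RNA per cell cannot be told apart.

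The gamma subfamilies are given separately, without a test of the difference between them. With shEZH2 the gamma A genes, several of which lie among the gamma B genes, summed to 12.1 ± 0.978 CPM (SD, n = 2) against 9.29 ± 0.121 with control shRNA, the gamma B genes to 18.9 ± 3.30 against 20.4 ± 5.03, and the gamma C genes to 6.44 ± 0.0386 against 6.86 ± 2.93. With shE2F1 the sums were 5.72 ± 0.948, 7.41 ± 0.665 and 4.26 ± 0.919 CPM. In both drug groups the mean sums were higher than in the knockdown controls. Beta was at 32.1 ± 9.73 CPM for DMSO and 34.2 ± 6.79 for GSK126, and gamma at 65.2 ± 5.20 and 57.9 ± 5.44. For beta the DMSO and control libraries overlapped, with DMSO replicate 2 at 25.2 CPM and control shRNA replicate 1 at 26.0. The knockdown and drug libraries differ in virus, selection and experiment, and these cannot be told apart. Replicate 1 was above replicate 2 in the beta and gamma sums of all 5 groups. In the drug groups the beta sums were 39.0 and 25.2 CPM for DMSO and 39.0 and 29.4 CPM for GSK126.

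**Figure D3:**
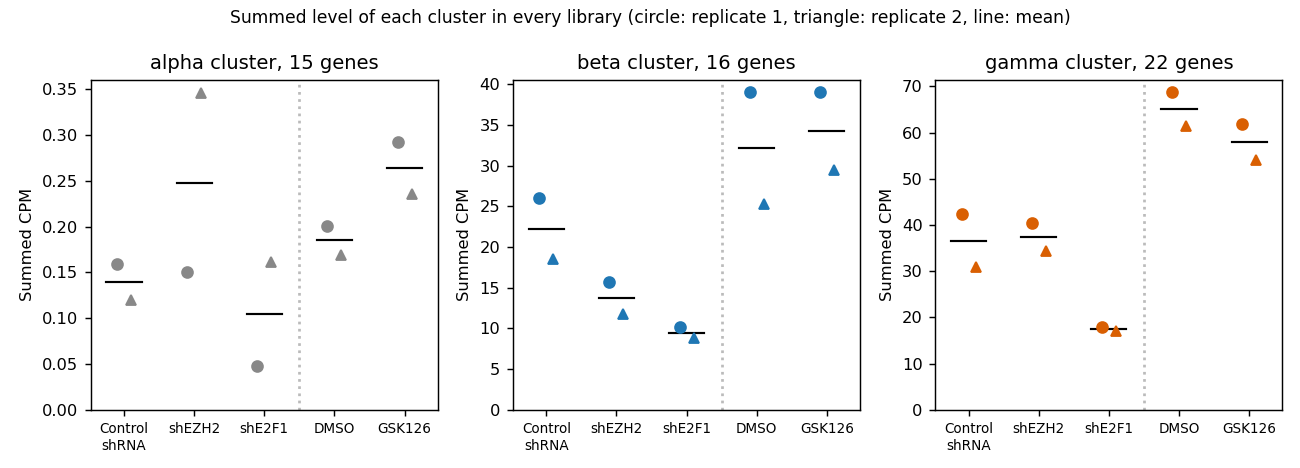
Summed CPM of the alpha, beta and gamma clusters (vertical axis) in the 10 libraries by group, with replicate 1 as a circle, replicate 2 as a triangle and the mean of 2 as a line. The shE2F1 libraries are the lowest of the knockdown groups for beta (10.2 and 8.79) and gamma (17.8 and 16.9), and alpha is near 0 throughout.

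To ask which single genes changed, edgeR's quasi-likelihood test was run over all genes, with p-values adjusted by the Benjamini-Hochberg method over all of them. Calls required that the adjusted p was under 0.01 and that the groups differed more than 2-fold. In the knockdown libraries 19 of the 53 genes (8 beta and 11 gamma) had enough counts to be tested, and 34 did not. The highest count of an untested gene in any of the 10 libraries was 21.4, in PCDHGA1.

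With shE2F1, 4 of the 19 tested genes were called lower and 0 higher. In all, 5.96% of the 15373 tested genes were called lower in this comparison and 5.6% higher. The 4 are PCDHB13 and PCDHB14 of the beta cluster and PCDHGB1 and PCDHGB2 of the gamma cluster, each a homophilic adhesion receptor and each among the 5 highest of the whole locus. PCDHB13 (ENSG00000187372) was at 11.6 and 6.80 CPM with control shRNA and at 3.25 and 2.21 CPM with shE2F1. The groups did not overlap, and it was 3.37-fold lower (log2 change −1.75, SE 0.32, edgeR adjusted p = 0.00122). Its neighbour PCDHB14 (ENSG00000120327) was at 4.19 and 4.95 CPM in the controls and at 1.94 and 1.69 CPM with shE2F1, 2.54-fold lower (−1.34, SE 0.27, edgeR adjusted p = 0.00218).

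The gamma B pair gave the lowest p-values. PCDHGB2 (ENSG00000253910) went from 13.7 and 10.1 CPM to 4.01 and 3.48 CPM, 3.17-fold lower (log2 change −1.66, SE 0.26, edgeR adjusted p = 0.000501). PCDHGB1 (ENSG00000254221) went from 5.79 and 5.06 CPM to 1.96 and 1.95 CPM, 2.78-fold lower (−1.48, SE 0.25, edgeR adjusted p = 0.000781). Both shE2F1 libraries were below both controls for each of these genes. PCDHGA4 (ENSG00000262576), which lies between PCDHGB1 and PCDHGB2, was at 1.75 and 2.98 CPM in the controls and at 0.818 and 0.917 CPM with shE2F1, and did not pass (−1.45, SE 0.51, edgeR adjusted p = 0.0407). PCDHGC3 (ENSG00000240184), a C-type protein known to restrain Wnt signalling, was at 8.26 and 4.61 CPM against 4.43 and 3.23 CPM and was not called either.

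Most other tested members had lower estimates with shE2F1 too. The estimate was below 0 for 18 of 19, with a median log2 change of −1.14 over the 8 beta genes (range −1.88 to −0.10) and −0.76 over the 11 gamma genes (−1.66 to 0.05), against a median of 0.00 over all genes tested. Both shE2F1 libraries were below both controls for 12 of the 19 and above both for 0, against 36.8% and 37.5% of all genes. At an adjusted p under 0.05 with no limit on size, 7 were lower (4 beta and 3 gamma), against 23.7% of all genes. The members' share of the calls rests on few libraries. The count of 4 became 3 without the first control library, 5 without the second, 2 without the first shE2F1 library and 1 (PCDHGB2) without the second, and 0 with limma on TPM, where the adjusted p of the 4 genes ran from 0.0208 (PCDHGB2) to 0.0426 (PCDHB14).

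PCDHB9 (ENSG00000177839) was the exception among the higher beta genes. It stood at 1.79 and 1.45 CPM with control shRNA and at 1.32 and 1.74 CPM with shE2F1, so the groups overlapped. Its share of all beta counts accordingly went from 6.9% and 7.8% in the controls to 13% and 19.8% with shE2F1. That of PCDHB13 went from 44.8% and 36.7% to 32.0% and 25.2%. A higher share was not limited to PCDHB9. PCDHB10 went from 7.7% and 7.6% to 13.3% and 11.8%, and PCDHB16 from 5.4% and 3.8% to 6.7% and 8.0%, while the shares of PCDHB8 and PCDHB12 fell. In TPM the picture of PCDHB9 was another one, because the effective length that RSEM assigned to PCDHB9 differed between libraries. That length depends on the transcripts the reads were given to. With that length as an offset the log2 change of PCDHB9 was −1.35 with shE2F1 (edgeR adjusted p = 0.0214) and −2.37 with shEZH2 (edgeR adjusted p = 0.00111), the second past the threshold.

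**Figure D4:**
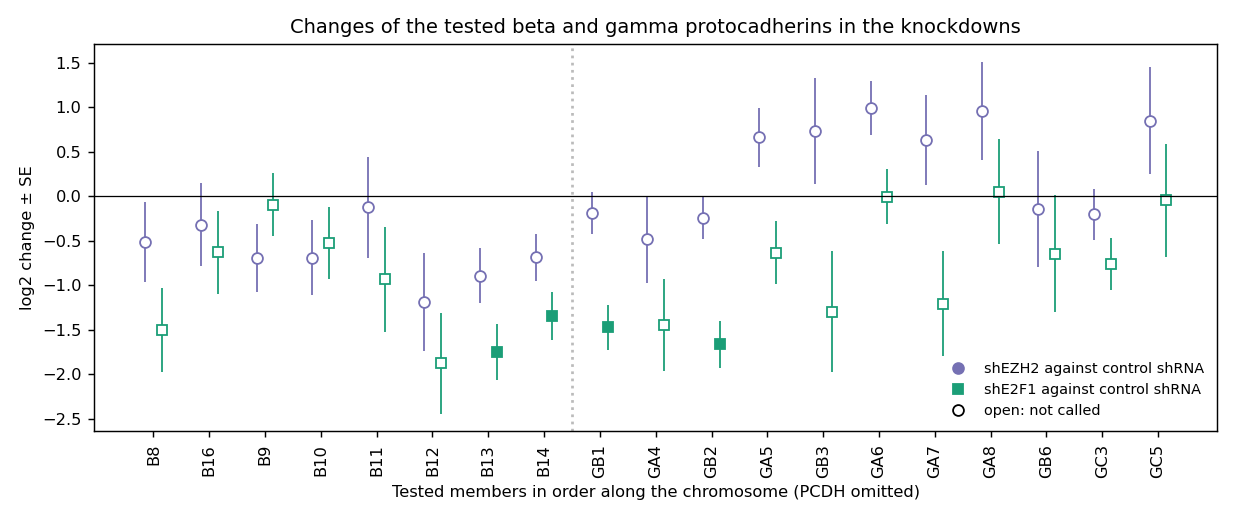
Log2 change against control shRNA (vertical axis) with its SE for the 19 tested members in chromosomal order (horizontal axis). shEZH2 is drawn as circles and shE2F1 as squares, filled where called. The 4 filled squares are PCDHB13, PCDHB14, PCDHGB1 and PCDHGB2, and no circle is filled.

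With shEZH2 0 of the 19 genes were called, against 18.2% of all genes tested (10.7% lower and 7.52% higher). Most of the 19 had few counts, and their SEs ran from 0.23 to 0.65. A call was therefore harder to reach for them than for abundant genes, and the 0 does not show that they were unchanged. At an unadjusted p under 0.05 in edgeR there were 3 members, against 9310 of 15373 genes in all. DESeq2 called 0 members and 2502 genes in all. All 8 beta estimates were below 0 (median −0.69, range −1.19 to −0.12), whereas in the gamma cluster 6 were above and 5 below 0 (−0.48 to 0.99), and the median of all genes was −0.02. Both shEZH2 libraries were below both controls for 5 of the 19, all of them among the 8 beta genes, against 38.8% of all genes. They were above both for 4 of the 19, all among the 11 gamma genes, against 38.7% of all genes.

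The 3 members with an adjusted p under 0.05, against 28.6% of all genes lower and 27.0% higher, were PCDHB13, PCDHB14 and PCDHGA6. PCDHB13 was at 6.01 and 4.08 CPM with shEZH2, both below the controls (log2 change −0.89, SE 0.31, edgeR adjusted p = 0.0291). PCDHB14 was at 2.96 and 2.79 CPM, also below both controls (−0.69, SE 0.26, edgeR adjusted p = 0.0451). PCDHGA6 (ENSG00000253731), a gamma A gene downstream of the gamma B pair, went the other way, from 2.26 and 2.16 CPM to 4.94 and 4.0 CPM (0.99, SE 0.30, edgeR adjusted p = 0.0167). The nearby PCDHGA5 (ENSG00000253485) was at 1.59 and 1.56 CPM in the controls and at 2.26 and 2.77 CPM with shEZH2, without passing (0.66, SE 0.33, edgeR adjusted p = 0.112). PCDHGB1, at 4.4 and 5.17 CPM, and PCDHGB2, at 12.8 and 7.80 CPM, gave log2 changes of −0.19 (SE 0.23) and −0.24 (SE 0.25), and for both the sign turned when effective lengths entered. Leaving out the first control library led to 1 call (PCDHGB3, which had 0.420 CPM in the second control and 2.63 in the first), and leaving out the second led to 1 call (PCDHB13).

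The mixture of gamma transcripts differed between the groups. PCDHGA6 took 5.4% and 7.0% of all gamma counts with control shRNA, 12.2% and 11.6% with shEZH2 and 9.9% and 16.0% with shE2F1, and 3.0% to 5.2% in the 4 drug libraries. With shE2F1 its own level, 1.76 and 2.71 CPM, overlapped the controls at 2.26 and 2.16 CPM (log2 change −0.006, SE 0.31, edgeR adjusted p = 0.99). The higher share there went with a lower gamma sum, whereas with shEZH2 the level of PCDHGA6 was itself higher. PCDHGB2 took 32.4% and 32.7% with control shRNA, 31.6% and 22.7% with shEZH2, 22.5% and 20.6% with shE2F1 and 35.9% to 40.5% in the drug libraries. Its share was lowest in the shE2F1 libraries, although 1 shEZH2 library came close to them.

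To compare the knockdowns with each other, shEZH2 was set against shE2F1, with the same libraries as in the comparisons above. Of the 19 genes, 3 were called higher with shEZH2 and 0 lower, against 10.4% of all genes called higher and 12.9% lower. All 3 are gamma genes. PCDHGB2 was 2.68-fold higher (log2 difference 1.42, SE 0.27, edgeR adjusted p = 0.000907), PCDHGB1 2.44-fold (1.29, SE 0.25, edgeR adjusted p = 0.00125) and PCDHGA5, at 0.911 and 1.16 CPM with shE2F1, 2.46-fold (1.3, SE 0.35, edgeR adjusted p = 0.00755). The call of PCDHGA5 was kept under 6 of 11 alternatives and was lost when any of the 4 libraries was left out (edgeR adjusted p 0.014 to 0.0709), as well as with the replicate number as a block (edgeR adjusted p = 0.0102). All 11 gamma estimates were above 0 (0.50 to 2.03, median 0.99) and 6 of the 8 beta estimates were (median 0.67), against a median of −0.02 over all genes. Both shEZH2 libraries were above both shE2F1 libraries for 15 of the 19 and below both for 1, against 40.4% and 42.1% of all genes. At an adjusted p under 0.05, 7 were higher (29.7% of all genes) and 0 lower (30.6%), and the higher ones included PCDHB13 (0.86, SE 0.33, edgeR adjusted p = 0.0449), PCDHGA6 (0.99, SE 0.30, edgeR adjusted p = 0.0143) and PCDHGB3 (2.03, SE 0.66, edgeR adjusted p = 0.0211). PCDHB14 did not reach that level (0.66, SE 0.28, edgeR adjusted p = 0.0648). The count of 3 became 2 without the first shEZH2 library, 1 without the second, 1 without the first shE2F1 library and 0 without the second.

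**Figure D5:**
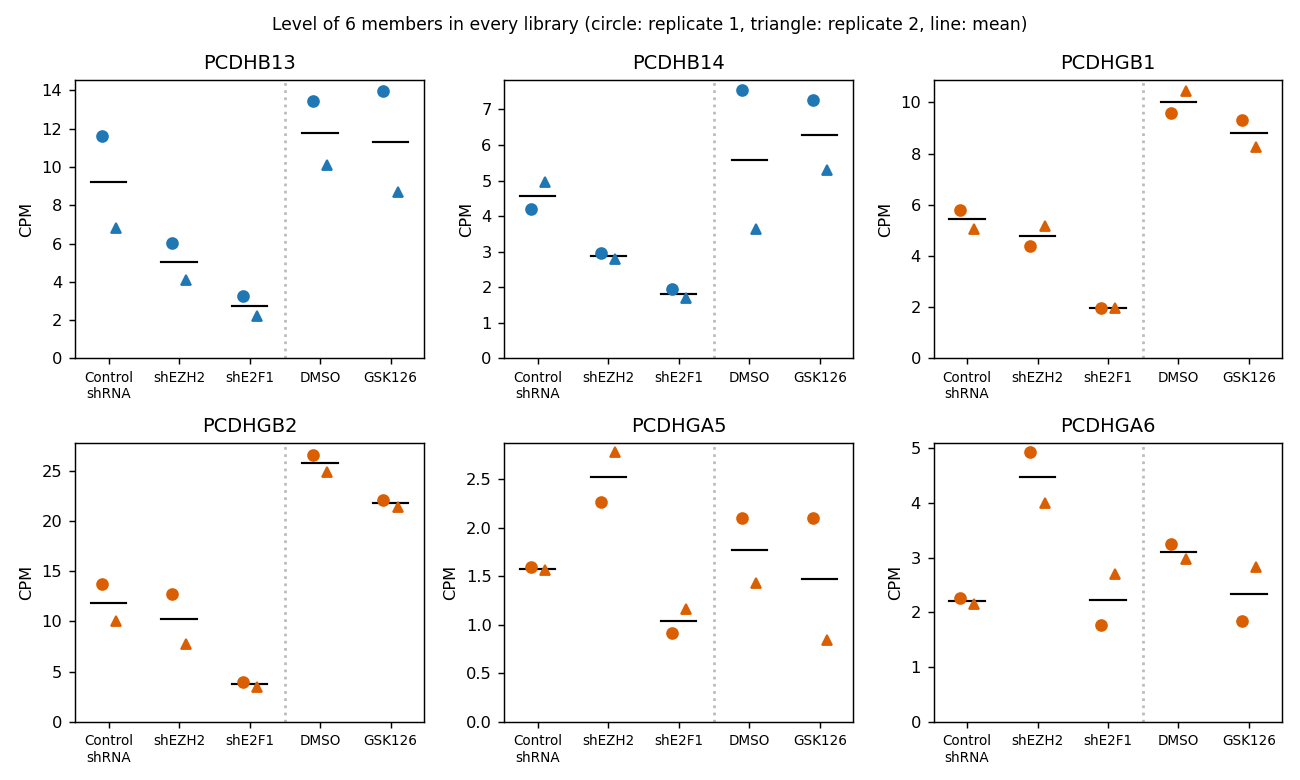
CPM (vertical axis) of PCDHB13, PCDHB14, PCDHGB1, PCDHGB2, PCDHGA5 and PCDHGA6 in each of the 10 libraries by group. For the first 4 the shE2F1 libraries are the lowest of the knockdown groups, and for PCDHGA6 the shEZH2 libraries, at 4.94 and 4.0 CPM, are the highest of all.

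With GSK126 no member was called. Of 53 genes 21 had enough counts to be tested (9 beta and 12 gamma), 0 were called (0% of 14632 genes), and 0 had an unadjusted p under 0.05, against 577 genes in all. DESeq2 called 0 members and 11 genes in all, and edgeR with the replicate number as a block called 0 members and 68 genes in all. The estimates ran from −0.76 to 0.73, with 10 above and 11 below 0. PCDHGB2 was at 26.6 and 24.9 CPM with DMSO and at 22.1 and 21.4 CPM with GSK126, PCDHB13 at 13.5 and 10.1 against 14.0 and 8.69 CPM, and PCDHGA6 at 3.24 and 2.97 against 1.84 and 2.83 CPM. For PCDHGB2 and PCDHGA6 both GSK126 libraries lay below both DMSO libraries (PCDHGA6 −0.43, SE 0.30), and for PCDHB13 the groups overlapped. Both GSK126 libraries were below both DMSO libraries for 3 of the 21 and above both for 2, against 13.2% and 15.2% of all genes.

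Whether the shEZH2 change differed from the GSK126 change was tested as an interaction over all 10 libraries. In it 23 members were tested and 0 called, against 13.8% of 15773 genes (5.13% higher and 8.67% lower). Few counts limited the calls here too, with SEs of the 23 from 0.27 to 0.96. The difference was 1.43 on the log2 scale for PCDHGA6 (SE 0.43, edgeR adjusted p = 0.0207), the only member with an adjusted p under 0.05 (16.9% of all genes higher and 19.7% lower). At an unadjusted p under 0.05 in edgeR there was 1 member as well, against 7251 of 15773 genes in all. DESeq2 called 0 members and 2128 genes in all. All 9 beta differences were below 0 (median −0.82) and the gamma median was 0.08, against −0.03 over all genes.

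The regulators known to act on this locus were followed as lists. All 11 genes that act in promoter choice (CTCF, the cohesin subunits RAD21, SMC1A, SMC3, STAG1 and STAG2, the loaders NIPBL and MAU2, and the release and stabilising factors WAPL, PDS5A and PDS5B) were tested and 0 were called in any comparison, against 18.2% of all genes with shEZH2, 11.6% with shE2F1, 23.3% for shEZH2 against shE2F1, 0% with GSK126 and 13.8% in the interaction. CTCF was at 25.2 to 39.4 TPM, with a log2 change of −0.42 in shE2F1 (edgeR adjusted p = 0.00405), under the 2-fold limit. Others moved within that limit too. With shE2F1 STAG1 (−0.49), NIPBL (−0.42) and RAD21 (−0.39) were lower (edgeR adjusted p 0.00291 to 0.00416), and MAU2 alone had an estimate above 0 (0.15). With shEZH2, among others, MAU2 (−0.62) and SMC1A (−0.61) were lower and NIPBL (0.40) higher (edgeR adjusted p 0.000427 to 0.00252). The median of the 11 was −0.25 with shE2F1 and 0.09 with shEZH2. Of 13 silencers known from this locus, such as SMCHD1, SETDB1 and the DNA methyltransferases, 3 were called with shEZH2, against 18.2% of all genes. The de novo methyltransferase DNMT3B rose (2.05, SE 0.16, edgeR adjusted p = 4.68e-06), and the maintenance methyltransferase DNMT1 (−1.09, SE 0.16, edgeR adjusted p = 0.00025) and its partner UHRF1 (−1.04, SE 0.13, edgeR adjusted p = 6.51e-05) fell. With shE2F1 0 of the 13 were called (11.6% of all genes), although several changed by less than the 2-fold limit. DNMT3A (−0.94), TRIM28 (−0.76), UHRF1 (−0.73) and SMCHD1 (−0.65) were lower and SETDB1 (0.54) was higher, at edgeR adjusted p from 7.5e-05 to 0.00387. The median of the list with shE2F1 was −0.02. DNMT3B was higher with shEZH2 than with shE2F1 (1.62).

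Other adhesion genes and partners behaved as follows. Of 16 intracellular partners of protocadherins, such as FYN, PTK2 and members of the WAVE complex, 15 were tested. The WAVE regulator CYFIP1 alone was called, higher with shEZH2 than with shE2F1 (1.02, SE 0.10, edgeR adjusted p = 7.52e-06). In that comparison 23.3% of all genes were called (10.4% higher), so 1 of 15 does not set the list apart. Of 11 protocadherins outside the clusters PCDH1 alone was tested, and it rose with shE2F1 (1.38, SE 0.22, edgeR adjusted p = 0.000567). Of 12 classical cadherins and catenins 9 were tested, of which 3 were called with shEZH2 and 5 with shE2F1, against 18.2% and 11.6% of all genes. With shEZH2 the epithelial CDH1 (2.23) and the neural CDH2 (2.30) rose and CDH4 (−1.18) fell, and with shE2F1 CDH1 (3.92), CDH2 (2.44), CDH11 (2.22) and CDH3 (1.64) rose and CDH4 (−2.67) fell. CDH1 was at only 0.26 to 4.50 TPM. The 4 protocadherin pseudogenes of the locus were not tested and stayed at or under 0.23 TPM.

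The genes around the clusters were taken from the annotation, as all 30 protein-coding genes that begin inside the locus or within 500000 bases of it. Of the 26 tested in the knockdown libraries, 5 were called with shEZH2 and 3 with shE2F1, close to the 18.2% and 11.6% of all genes, so these counts do not set the neighbourhood apart. With shEZH2 FCHSD1 (1.3) was higher, and TMCO6 (−1.53), WDR55 (−1.37), RELL2 (−2.84) and ARAP3 (−1.95) were lower. With shE2F1 PCDH1 was higher, and TMCO6 (−1.72) and the histone deacetylase HDAC3 (−1.46) were lower. RELL2 and FCHSD1 overlap on opposite strands, and no source used here states whether counting used the strand. TAF7, a subunit of the general transcription factor TFIID, lies between the beta and gamma clusters and was at 129 and 132 CPM with control shRNA, 141 and 136 with shEZH2 and 128 and 132 with shE2F1. DIAPH1, an actin nucleator next to the end of the gamma cluster on the other strand, went from 300 and 328 CPM to 579 and 584 CPM with shEZH2 (0.88, SE 0.09, edgeR adjusted p = 1.67e-05), under the 2-fold limit, and was at 331 and 334 CPM with shE2F1. With GSK126 0 genes of any of these lists were called.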

How the data were processed

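RNA-seq of polyadenylated RNA from MDA-MB-231 cells was used. The authors mapped reads with STAR to hg38 with Ensembl 108 and counted with RSEM, modelling read start positions. The submitters' processing notes list STAR 2.7.2b and RSEM 1.3.1, while the study's methods name a later STAR version. The 18 deposited sample records hold 10 distinct libraries, since 8 records repeat another, and each library was counted once. The authors deposited expected counts per gene (not normalized), TPM, effective lengths in bases, posterior mean counts and, as a score, the posterior standard deviation of each count. Whether the counting used the strand is not given in the sources used here. A protocadherin read that matches several genes is split between them by RSEM, so a change in one member can appear in another.

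Gene names came from GENCODE 44 (Ensembl 110), which held 62625 (99.9%) of the 62703 identifiers. Expected counts were rounded, filtered by filterByExpr (minimum count 10), TMM-scaled and tested with edgeR 4.0.16 (R 4.3.3) by quasi-likelihood, with the 6 knockdown libraries in one fit, the 4 drug libraries in another and all 10 for the interaction. CPM are TMM-scaled. Calls needed an adjusted p under 0.01 and more than 2-fold, as in the study. Nothing states that replicates were separate cultures, so p-values measure only the spread between these samples. Totals ran from 13198932 to 20055550 expected counts, and the floor of 3 counts covers counting error only.

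Alternatives were DESeq2 1.42.0, DESeq2's size factors, no filter, a mean count of 50 as filter, a replicate block, a GC content and length correction, effective-length offsets, limma 3.58.1 on log2(TPM + 0.1), and leaving out each library. Named were EZH2 and E2F1, the 3 highest members per group and all gamma C genes, every called member, and called genes of the lists (at most 4 per list, neighbours all). PCDHB8, PCDHB12, PCDHB10, PCDHGA1 and other members given only as part of a run, a share of counts or a motif count lie outside that rule. So do CTCF, other uncalled regulators and silencers, TAF7, DIAPH1 and the cell markers. All of these were named after their values were seen. The members and lists were chosen with earlier results of these data known.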

Additional observations from a re-analysis of the deposited data

Results flagged for a closer look

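No clustered protocadherin gene was picked out here. The difference between the shEZH2 change and the GSK126 change was tested as an interaction, and it passed the threshold for both targeted genes. It was −1.92 on the log2 scale for EZH2 (edgeR adjusted p = 2.31e-05) and −1.78 for E2F1 (edgeR adjusted p = 0.00129), since both RNAs were lower with shEZH2 and neither was with GSK126.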

How the results depend on the processing

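The count of called members moved as follows. With shEZH2 it was 0, and 1 with effective-length offsets and 1 with limma on TPM (PCDHB9 both times), 3 at an adjusted p under 0.05 with no fold limit, and 0 to 1 when single libraries were left out. With shE2F1 it was 4, and 0 with limma on TPM, 7 at the looser limit, and 1 to 5 with a library left out. For shEZH2 against shE2F1 it was 3, and 5 with no filter, 7 at the looser limit, and 0 to 2 with a library left out. For the interaction it was 0, and 1 with no filter (PCDHGA6), 1 with offsets (PCDHB9), 1 at the looser limit, and 0 with any library left out. With GSK126 it was 0 under every alternative run. The log2 change of PCDHGB1 with shEZH2 turned to 0.078 with offsets and 0.25 with limma, and that of PCDHGB2 to 0.046 and 0.20, and to between −0.63 and 0.10 with a library left out. Limma on TPM shifted the median of all genes by 0.16 with shEZH2, 0.21 with shE2F1 and 0.12 in the interaction. E2F1 in shEZH2 against shE2F1 passed the fold limit at 1.39 with the GC content and length correction and 1.37 with the block added, was 0.95 as tested and at the looser limit, and ran from 0.41 to 1.37 with a library left out. EZH2 with shE2F1, at −0.37, passed only the looser limit. The causes were not tested. Cluster sums moved by less than the spread between replicates under every alternative run. With 2 libraries per group, leaving 1 out can hardly move a sum beyond that spread, so those runs do not show that it is stable. The log2 ratio of the gamma sum with shEZH2, 0.03 as computed, was 0.05 to 0.29 under other scalings. It was −0.18 to 0.28 with a library left out, and the beta ratio with GSK126 was −0.19 to 0.44.

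Replicate numbers are shared by the groups but nothing says that they pair the samples. Deviations of same-numbered libraries correlated at 0.81 between DMSO and GSK126 and at 0.02 to 0.19 between knockdown groups. With the number as a block the called members were 0 with shEZH2, 4 with shE2F1, 2 for shEZH2 against shE2F1, 0 with GSK126 (where 68 genes in all were called, against 0 without the block) and 0 in the interaction, and PCDHGA5 in shEZH2 against shE2F1 was 1.29 (edgeR adjusted p = 0.0102). Depth limits the alpha cluster, where no gene could be tested.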
